A study of Homo sapiens with 24 samples.

Results

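The small nucleolar RNA host genes SNHG1, SNHG5, SNHG7, SNHG8, SNHG12, SNHG15, SNHG16, SNHG19 and GAS5 were followed through 24 RNA-sequencing libraries of human cancer cell lines treated with EPZ015666. EPZ015666 (GSK3235025) is an inhibitor of the protein arginine methyltransferase PRMT5, an enzyme that places symmetric dimethyl marks on histones and on RNA-processing proteins such as the Sm proteins of the spliceosome. The 9 genes were chosen by symbol, all 9 have a row, and they are 9 of the 16591 gene symbols in the deposited table. The choice was made with results of these libraries known, and the differences between drug and vehicle were among them. Those differences are therefore given host by host as a description, with the SE of the fit and without a p-value.

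BT549 and MDAMB436 are breast cancer lines, and OVCAR8 and COV362 are ovarian cancer lines. Each library came from poly(A) RNA of one line kept in 5 µM EPZ015666 or in the vehicle DMSO. BT549 and OVCAR8 were collected at day 3 and day 5, and COV362 and MDAMB436 at day 5 only. That made 12 groups of 2 libraries, lettered A and B. The labels leave it unsaid whether the letters stand for separate cultures, so every SE and p-value measures the spread between libraries, which may be technical. The 4 lines are single established lines, and no other genotype, drug or dose is in the labels.

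Small nucleolar RNAs (snoRNAs) are short guide RNAs of the nucleolus. Those with C and D boxes direct methylation of the ribose in ribosomal RNA, and those with H and ACA boxes direct its conversion of uridine to pseudouridine. Most human snoRNAs are not transcribed on their own: they lie in introns of a host gene, are cut from the debranched intron after splicing, and are protected by their snoRNP proteins. In the hosts studied here the spliced exons carry no conserved protein-coding frame, and their transcripts are widely known as targets of nonsense-mediated decay, the pathway that degrades an mRNA whose reading frame stops early. Many hosts begin transcription at a pyrimidine tract like that of ribosomal protein mRNAs. Poly(A) libraries capture the polyadenylated host RNA and not the snoRNA. The values used here do not separate spliced host RNA from host RNA that keeps introns.

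Of the 9 hosts, 7 lie on the minus strand, and SNHG8 and SNHG16 lie on the plus strand. On GRCh38 with the GENCODE v29 annotation, SNHG1 (ENSG00000255717.6) spans chr11:62851988-62855914 and holds 9 RefSeq snoRNA genes, SNORD22 and SNORD25 to SNORD31 among them. GAS5 (ENSG00000234741.7), named for its accumulation in growth-arrested cells, spans chr1:173863900-173868882 and holds 11, mostly C/D box snoRNAs such as SNORD44 and SNORD47. SNHG16 (ENSG00000163597.14, chr17:76557766-76565348) holds the 3 SNORD1 copies, SNHG5 (ENSG00000203875.11, chr6:85660950-85678748) holds SNORD50A and SNORD50B, and SNHG19 (ENSG00000260260.1, chr16:2154797-2155358) holds SNORD60.

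The remaining hosts carry mainly H/ACA box snoRNAs. SNHG12 (ENSG00000197989.14, chr1:28578538-28583132) holds 4 snoRNA genes, namely SNORA44, SNORA61, SNORA16A and the C/D box SNORD99. SNHG7 (ENSG00000233016.6, chr9:136721366-136728184) holds SNORA17A and SNORA17B, SNHG8 (ENSG00000269893.6, chr4:118278709-118279823) holds SNORA24, and SNHG15 (ENSG00000232956.8, chr7:44983023-44986961) holds SNORA9. In all, 34 RefSeq snoRNA genes lie inside the 9 spans, and their own levels were not analysed here.

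The cargo is shown for SNHG1 and SNHG19, the hosts whose drug libraries lay above DMSO in every line, and for SNHG8, the host with the largest difference below DMSO. The sequences are GENCODE v29 transcripts on GRCh38, written 5′ to 3′. Capitals mark the C box TGATGA and the D box CTGA of the C/D snoRNAs, and the ACA box of the H/ACA snoRNA. SNORD25 lies at chr11:62855564-62855632 on the minus strand, SNORD60 at chr16:2155023-2155105 on the minus strand, and SNORA24 at chr4:118279190-118279320 on the plus strand.
SNORD25: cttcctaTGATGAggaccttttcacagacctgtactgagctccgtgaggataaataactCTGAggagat
SNORD60: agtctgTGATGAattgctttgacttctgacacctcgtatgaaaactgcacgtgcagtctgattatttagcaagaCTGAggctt
SNORA24: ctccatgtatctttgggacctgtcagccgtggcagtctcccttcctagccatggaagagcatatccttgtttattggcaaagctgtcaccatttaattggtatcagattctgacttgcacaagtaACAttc

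The first 30 bases of a transcript are shown next for each host, because a pyrimidine start is the feature these genes are known to share with ribosomal protein genes. For each host the transcript with the longest opening run of C and T was taken from GENCODE v29 on GRCh38, and a run of at least 5 bases is in capitals. The 30 bases of SNHG1-203 lie at chr11:62855450-62855479, inside the gene, and those of SNHG19-201 at chr16:2155329-2155358, at the start of the gene.
SNHG1-203: CTCCTgtctgcaggatttacgcgcacgttg
SNHG5-202: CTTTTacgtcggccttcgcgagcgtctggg
SNHG7-201: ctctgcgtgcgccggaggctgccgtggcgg
SNHG8-205: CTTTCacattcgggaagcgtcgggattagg
SNHG12-202: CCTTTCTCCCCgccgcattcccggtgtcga
SNHG15-201: ccgccatcctgggccccacgtgttgcctga
SNHG16-204: CTTTTCgaggtcggccgcgtggctggaaga
SNHG19-201: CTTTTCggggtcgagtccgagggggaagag
GAS5-210: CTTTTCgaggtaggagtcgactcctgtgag

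SNHG16, SNHG19 and GAS5 share the opening CTTTTC. A transcript with such a run, beginning with C, was found for 7 of the 9 hosts, and not for SNHG7 and SNHG15. Of the hosts' 122 annotated transcripts, 18 (14.8%) began so, against 2.41% of all 206694 transcripts in the annotation. At least 1 such start was found for 6.75% of all 57133 genes. Genes with many transcripts have more chances, and among the 5952 genes with 10 or more transcripts it was 28.4%. Annotated ends can be cut short, and a match is a description of the letters.

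RefSeq promoter windows of GRCh38.p14, from 250 bases before to 50 after the start, were at hand for 8 hosts, all but SNHG15. The motif TATAAA, read on both strands, was in the windows of 3 of the 8 (SNHG1, SNHG7 and SNHG19) and in 11.5% of all 35116 windows. CACGTG, the E-box, was in 1 of the 8 (SNHG7) and in 7.26% of all windows. The BANP motif, a palindrome of 10 letters, was in 0 of the 8 and in 0.424% of all. The 100 bases around the start are shown for SNHG1 and SNHG19 because their drug libraries lay above DMSO without overlap in all 6 comparisons. They run from 50 bases before the start, with the match in capitals, and lie at chr11:62855836-62855935 and chr16:2155309-2155408 on the minus strand. In SNHG19 the match sits 30 bases before the start, and in SNHG1 it is on the opposite strand, 39 bases after the start.
SNHG1: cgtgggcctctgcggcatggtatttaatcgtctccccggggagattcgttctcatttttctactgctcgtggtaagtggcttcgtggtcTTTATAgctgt
SNHG19: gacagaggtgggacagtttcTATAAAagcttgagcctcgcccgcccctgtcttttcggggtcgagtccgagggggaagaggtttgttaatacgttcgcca

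Values are RPKM, read counts scaled to the length of the gene and to a total for the library. The length behind them is the whole span of the gene with its introns. SNHG5 has a span of 17799 bases with 2806 bases of exon, so its RPKM is low for its reads, and levels of different hosts are not ranked against each other. The libraries held 23.8 M to 44.9 M recovered reads (median 27.8 M). The total behind the RPKM differed from them. For library A of BT549 at day 5 it was 25.0 M against 26.7 M reads in DMSO and 24.6 M against 24.8 M under the drug. In MDAMB436 under the drug, library A had 30.3 M against 28.5 M. How the total was set is not given in the sources used here, and it enters every difference between libraries. The most thinly covered host was SNHG19, with 110 to 642 reads a library (median 330), and SNHG5 had the highest median, 5447 reads. A set of 4 genes on 21p took a median of 0.289% of the reads, but 4.54% in library B of OVCAR8 under the drug at day 5 and 1.39% in library A of BT549 under the drug at day 3. Of the marker genes, KRT18 (7.52 RPKM or more) and VIM (43.7 or more) were present in every library. KRT8 was at most 0.050 RPKM in BT549 and 22.8 or more in OVCAR8. FN1 was at most 0.457 in MDAMB436, and ZEB1 at most 0.420 in BT549, its highest line. Of the breast markers, KRT19 was 29.7 or more in COV362, an ovarian line, and at most 0.172 in BT549 and 0.035 in MDAMB436. GATA3 was 4.17 or more in BT549 and at most 0.066 in MDAMB436. WT1, an ovarian marker, was 0.136 to 0.202 in BT549 and 0.037 to 0.062 in OVCAR8. EPCAM was at or near 0 in BT549 (0.0025 RPKM or less), and PAX8, a marker of ovarian carcinoma, was at most 0.095 in OVCAR8 and 0.354 in COV362. The endothelial gene PECAM1 was at most 0.116 RPKM in COV362, its highest line, and the leukocyte genes on the marker list were not analysed here. In such bulk RNA, fewer cells that express a gene and less of its RNA per cell cannot be told apart.

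**Figure D1:**
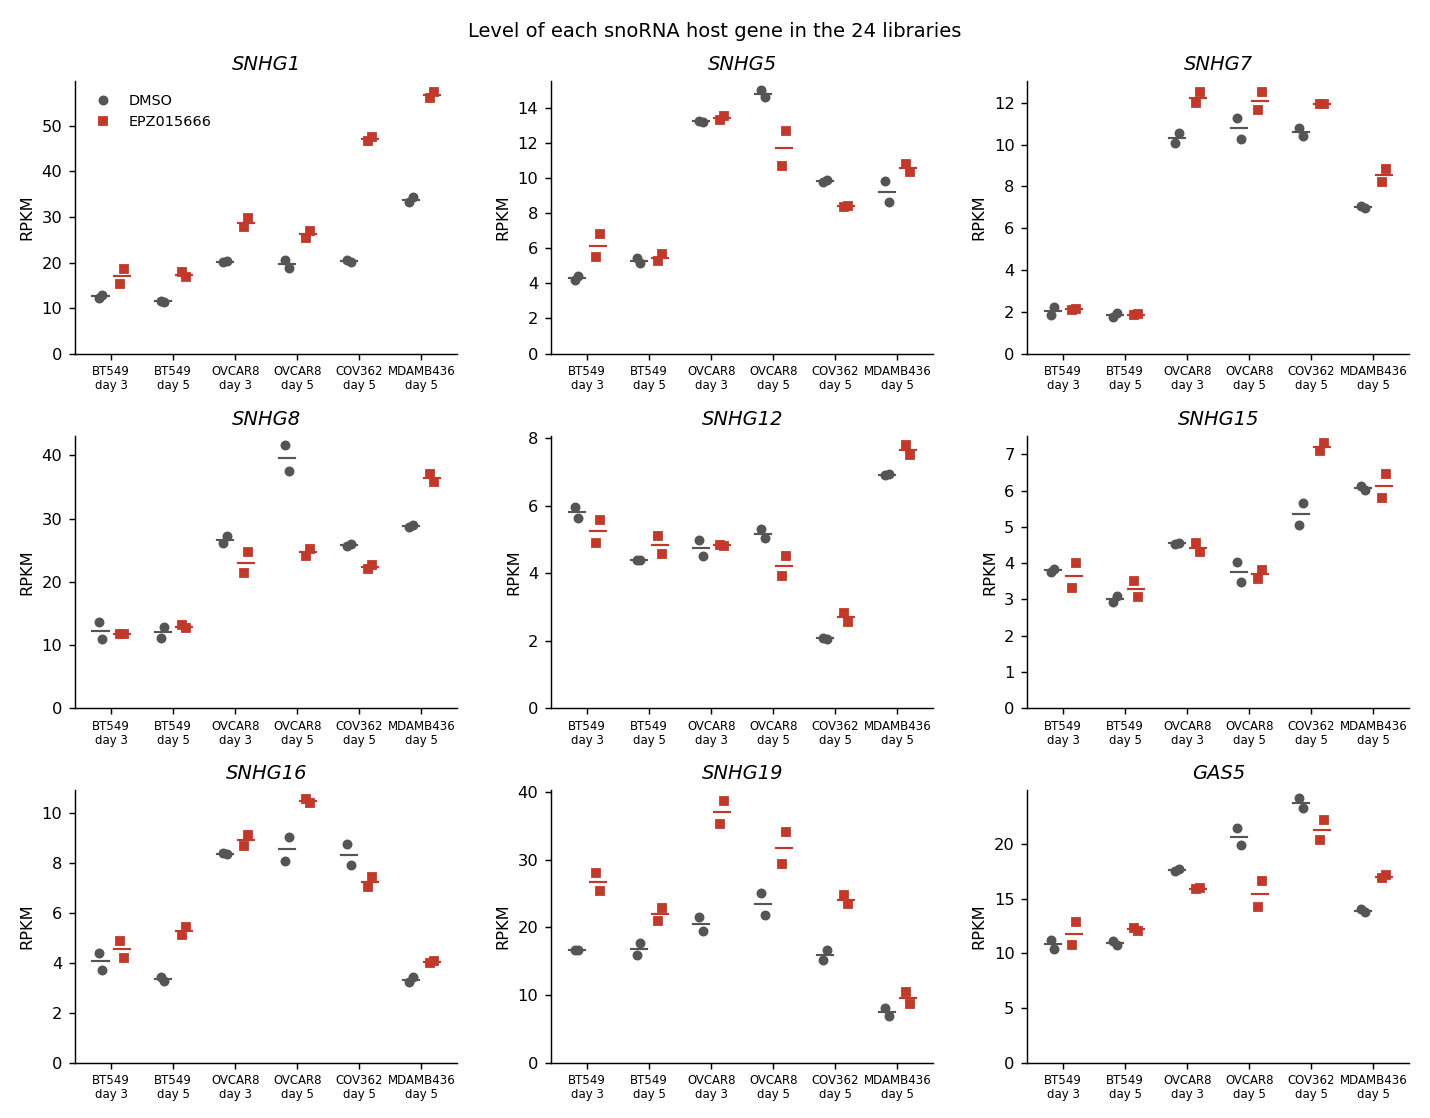
RPKM of each host gene (linear axes from 0) in each line and day, with DMSO libraries as grey circles, EPZ015666 libraries as red squares and a bar at the mean of the 2. The red squares of SNHG1 and SNHG19 lie above the grey circles in all 6 pairs of groups, while SNHG8 in OVCAR8 at day 5 has its squares (24.1 and 25.2 RPKM) far below its circles (41.6 and 37.5).

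Baseline levels came first, in DMSO alone. The DMSO libraries of day 5 are also the reference of the day 5 drug comparisons, whose results were known when the hosts were chosen. The p-values between lines are thus not independent of that choice and serve as a description. In DMSO at day 5 the level of all 9 hosts differed between the 4 lines (limma, moderated F test, adjusted p between 7.26e-08 and 3.66e-05). Nearly every gene did so: 98.6% of the 6542 genes tested passed. Between pairs of lines, 84.6% of genes passed for BT549 and COV362, 85.8% for BT549 and MDAMB436, 83.6% for BT549 and OVCAR8, 84.1% for COV362 and MDAMB436, 84.2% for COV362 and OVCAR8 and 87.1% for MDAMB436 and OVCAR8. The widest range was that of SNHG7, at 11.3 and 10.3 RPKM in OVCAR8, 10.8 and 10.4 in COV362, 7.05 and 6.94 in MDAMB436, and 1.76 and 1.96 in BT549. Its highest line stood 5.79-fold above its lowest, and OVCAR8 and COV362 did not differ beyond their spread (adjusted p = 0.743 by limma). SNHG15 had the narrowest range, 2.01-fold, from 6.12 and 6.02 RPKM in MDAMB436 and 5.05 and 5.67 in COV362 down to 4.03 and 3.48 in OVCAR8 and 2.93 and 3.11 in BT549. Its step from MDAMB436 to COV362 missed the threshold (adjusted p = 0.0672 by limma).

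BT549 was the lowest line for 6 of the 9 hosts, namely SNHG1, SNHG5, SNHG7, SNHG8, SNHG15 and GAS5. The share of all genes lowest in BT549 was not computed, so nothing is read from this count. SNHG1 was highest in MDAMB436 (33.2 and 34.4 RPKM), followed by COV362 (20.6 and 20.1) and OVCAR8 (20.5 and 18.7), which were not separated (adjusted p = 0.384 by limma), and by BT549 (11.7 and 11.2). SNHG8 ran from 41.6 and 37.5 RPKM in OVCAR8 through 28.7 and 28.9 in MDAMB436 and 25.6 and 26.0 in COV362 to 11.1 and 12.9 in BT549. MDAMB436 and COV362 were again not separated (adjusted p = 0.0906 by limma). For GAS5 each step passed, from COV362 (24.3 and 23.3 RPKM) to OVCAR8 (21.4 and 19.9), MDAMB436 (14.1 and 13.7) and BT549 (11.2 and 10.8).

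The other hosts had other orders. SNHG12 was lowest in COV362, at 2.08 and 2.05 RPKM, against 6.90 and 6.93 in MDAMB436, 5.30 and 5.03 in OVCAR8 and 4.38 and 4.40 in BT549, with each step past the threshold. SNHG19 was lowest in MDAMB436, at 8.07 and 6.86 RPKM, and highest in OVCAR8, at 25.2 and 21.8. BT549 (15.9 and 17.6) and COV362 (15.1 and 16.7) lay between and were not separated (adjusted p = 0.530 by limma). SNHG16 split the lines into OVCAR8 and COV362 at 7.93 to 9.03 RPKM and BT549 and MDAMB436 at 3.23 to 3.42, with no separation within either pair (adjusted p = 0.637 and 0.938 by limma). SNHG5 ran from OVCAR8 (15.0 and 14.6 RPKM) to COV362 (9.78 and 9.90) and MDAMB436 (9.80 and 8.6), not separated from each other (adjusted p = 0.188 by limma), and then to BT549 (5.46 and 5.14).

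The question of the study was what PRMT5 inhibition does to the transcriptome in each line. Over all genes tested in a line, a gene is called higher or lower when limma on log2(RPKM + 1) gave an adjusted p under 0.05. The hosts' counts are set beside the share of all genes, and nothing is read from them, since these differences were known when the hosts were chosen. In BT549 3 hosts were called higher and 0 lower at each day, where 17.7% of all genes were called higher and 22.7% lower at day 5, and 9.22% and 10.8% at day 3. OVCAR8 had 3 higher and 4 lower at day 5 (all genes 21.1% and 35.1%), and 3 higher and 0 lower at day 3 (15.6% and 21.4%). COV362 had 5 higher and 4 lower, 9 in all (39.3% and 31.5%, together 70.8%). That number was 7 without a filter on low values, where SNHG16 and GAS5 dropped out, and 7 with 1 fit over all libraries, where SNHG8 and GAS5 did. MDAMB436 had 5 higher and 0 lower (19% and 23.2%). In the comparisons with 0 lower, limma's unadjusted p under 0.05 also gave 0 lower hosts in BT549 and MDAMB436. So did limma-voom, a count-based form of the same test, after adjustment. It was run on read numbers recovered from RPKM, gene span and a unit fitted for each library. The unadjusted p and limma-voom each gave 1 lower host in OVCAR8 at day 3, SNHG8. The median log2 difference of the 9 ran from -0.02 in OVCAR8 at day 5 to 0.25 in MDAMB436, where the median over all genes ran from -0.04 to 0.03 over the 6 comparisons. At 9 genes such a median follows single hosts: in OVCAR8 at day 5 it was 0.06 without DMSO library A and 0.02 without EPZ015666 library A.

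**Figure D2:**
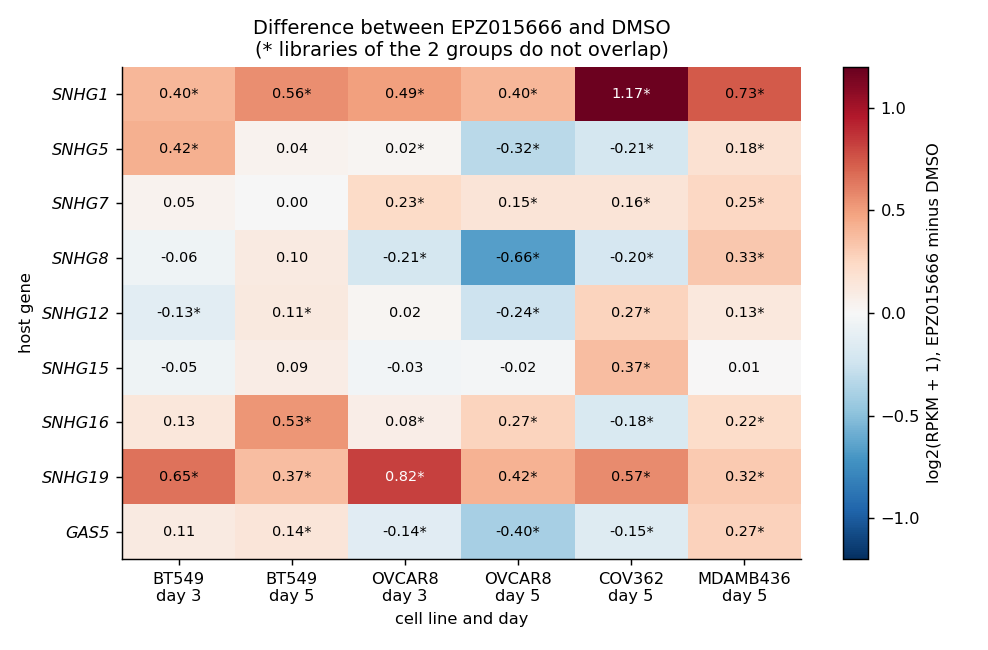
Difference in log2(RPKM + 1) between EPZ015666 and DMSO for each host (rows) in each line and day (columns), red where the drug group is higher and blue where it is lower, with an asterisk where the libraries of both groups do not overlap. SNHG1 is red throughout, from 0.40 to 1.17, and SNHG19 from 0.32 to 0.82, while SNHG5, SNHG8, SNHG12, SNHG16 and GAS5 each carry marked cells of both colours. The asterisk is not a test, and SNHG5 in OVCAR8 at day 3 carries it at 0.02.

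SNHG1, the host of the SNORD22 and SNORD25 to SNORD31 guides, was higher under the drug in all 6 comparisons, without overlap between libraries. COV362 showed the largest difference: 20.6 and 20.1 RPKM in DMSO and 46.7 and 47.6 under EPZ015666, 2.32-fold, a log2 difference of 1.17 ± 0.027 (SE). MDAMB436 went from 33.2 and 34.4 to 56.0 and 57.5 RPKM, 1.68-fold (0.73 ± 0.041). These treated MDAMB436 libraries held the highest SNHG1 levels of the 24.

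The differences in SNHG1 were smaller in the lines collected on both days. OVCAR8 gave 20.5 and 18.7 RPKM in DMSO against 25.4 and 27.0 under the drug at day 5, 1.34-fold (log2 0.40 ± 0.056), and 20.1 and 20.3 against 27.8 and 29.8 at day 3, 1.42-fold (0.49 ± 0.056). BT549 gave 11.7 and 11.2 RPKM against 17.9 and 16.8 at day 5, 1.51-fold (0.56 ± 0.087), and 12.2 and 12.9 against 15.4 and 18.6 at day 3, 1.35-fold (0.40 ± 0.087). The day 3 libraries of BT549 under the drug lie farther apart than any other SNHG1 pair, and with 1 library left out the log2 difference there ran from 0.27 (without EPZ015666 library B) to 0.53 (without EPZ015666 library A).

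SNHG19, the short host of SNORD60, was also above DMSO without overlap in all 6 comparisons. Its largest difference was in OVCAR8 at day 3, from 21.6 and 19.5 RPKM to 35.3 and 38.7, 1.80-fold (log2 0.82 ± 0.10). BT549 at day 3 followed, from 16.6 and 16.6 to 28.1 and 25.4 RPKM, 1.61-fold (0.65 ± 0.074), and then COV362, from 15.1 and 16.7 to 24.8 and 23.4 RPKM, 1.52-fold (0.57 ± 0.057). In both lines with 2 days, the day 3 fold was the larger, a difference between days that was not tested.

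At day 5 SNHG19 stood at 15.9 and 17.6 RPKM in DMSO and 20.9 and 22.9 under the drug in BT549, 1.31-fold (log2 0.37 ± 0.074), and at 25.2 and 21.8 against 29.3 and 34.1 in OVCAR8, 1.35-fold (0.42 ± 0.10). MDAMB436 gave 8.07 and 6.86 RPKM against 10.4 and 8.73, 1.28-fold (0.32 ± 0.10), and SNHG19 was not among the hosts called higher there. The spread between the 2 libraries is wide for this thinly covered gene. With 1 library left out, the log2 difference ran from 0.30 to 0.44 in BT549 at day 5, from 0.31 to 0.52 in OVCAR8 at day 5 and from 0.21 (without EPZ015666 library A) to 0.43 (without EPZ015666 library B) in MDAMB436.

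SNHG1 and SNHG19 were thus the 2 hosts above DMSO without overlap in all 6 comparisons, which held for 6.06% of the 4721 genes tested in each line. Each of the 6 comparisons has DMSO libraries of its own. With 2 libraries a group, the groups of an unchanged gene can also fail to overlap. The share of all genes without overlap is not given for single comparisons. Counts of such comparisons for a host are therefore a description.

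SNHG7, the host of SNORA17A and SNORA17B, was above DMSO without overlap in 4 comparisons. MDAMB436 went from 7.05 and 6.94 to 8.21 and 8.84 RPKM, 1.22-fold (log2 0.25 ± 0.046). OVCAR8 at day 3 gave 10.1 and 10.5 against 12.0 and 12.5 RPKM, 1.19-fold (0.23 ± 0.054), and COV362 10.8 and 10.4 against 11.9 and 11.9 RPKM, 1.13-fold (0.16 ± 0.028). In OVCAR8 at day 5 the drug libraries (11.7 and 12.5 RPKM) were above those in DMSO (11.3 and 10.3). With 1 library left out, the log2 difference ran from 0.20 to 0.26 in OVCAR8 at day 3, from 0.09 to 0.21 in OVCAR8 at day 5 (highest without DMSO library A) and from 0.20 to 0.30 in MDAMB436.

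In BT549, where SNHG7 was lowest, the groups overlapped at both days, and its levels were 1.76 to 2.22 RPKM over the 8 libraries. FAM69B, a protein-coding gene on the opposite strand, shares 2685 bases with SNHG7. Its own mean was below DMSO in each of the 6 comparisons, with folds of 0.5 to 0.965. The labels call the libraries stranded, but whether strand was used in counting is not given in the sources used here, so reads from the shared bases cannot be told apart.

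SNHG16, the host of the SNORD1 guides, was above DMSO without overlap in 4 comparisons and below it in 1. BT549 at day 5 gave 3.41 and 3.27 RPKM in DMSO against 5.13 and 5.44 under the drug, 1.58-fold (log2 0.53 ± 0.082). In BT549 DMSO, SNHG16 was lower at day 5 than at day 3 without overlap (-0.22), though it did not pass. Against the DMSO libraries of day 3, an alternative chosen after seeing the data, the day 5 drug libraries differed by 0.32. OVCAR8 at day 5 gave 8.08 and 9.03 against 10.6 and 10.4 RPKM, 1.22-fold (0.27 ± 0.050), and MDAMB436 3.23 and 3.42 against 4.0 and 4.06 RPKM, 1.21-fold (0.22 ± 0.039).

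COV362 went the other way for SNHG16, from 8.75 and 7.93 to 7.05 and 7.42 RPKM, 0.868-fold (log2 -0.18 ± 0.053). With 1 library left out it ran from -0.24 to -0.12 (the latter without DMSO library A). At day 3 SNHG16 stood at 4.40 and 3.70 against 4.87 and 4.2 RPKM in BT549, where the groups overlapped, and at 8.40 and 8.35 against 8.69 and 9.13 in OVCAR8, where they did not. A gene on the opposite strand shares 1639 bases with SNHG16 and was not analysed here.

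SNHG8, which carries SNORA24, had the largest difference below DMSO among the 9 hosts. OVCAR8 at day 5 stood at 41.6 and 37.5 RPKM in DMSO and at 24.1 and 25.2 under the drug, 0.624-fold (log2 -0.66 ± 0.079). MDAMB436 went from 28.7 and 28.9 to 37.0 and 35.9 RPKM, 1.26-fold (0.33 ± 0.038), and COV362 from 25.6 and 26.0 to 22 and 22.7 RPKM, 0.865-fold (-0.20 ± 0.028). None of these pairs of groups overlapped.

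The DMSO libraries of OVCAR8 also differed between the days for SNHG8. At day 3 DMSO stood at 26.2 and 27.2 RPKM and the drug libraries at 21.3 and 24.7, 0.863-fold (log2 -0.21 ± 0.079), which ran from -0.31 (without EPZ015666 library B) to -0.11 (without EPZ015666 library A) with 1 library left out. Against the DMSO libraries of day 3, an alternative chosen after seeing the data, the day 5 drug libraries differed by -0.11. In BT549 the groups overlapped on both days, with 11.1 and 12.9 RPKM in DMSO against 13.1 and 12.7 at day 5, and 13.7 and 10.9 against 11.7 and 11.7 at day 3.

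GAS5, with 11 snoRNA genes inside its span, was below DMSO without overlap in 3 comparisons and above it in 2. OVCAR8 at day 5 gave 21.4 and 19.9 RPKM in DMSO against 14.2 and 16.6 under the drug, 0.747-fold (log2 -0.40 ± 0.071). MDAMB436 gave 14.1 and 13.7 against 16.9 and 17.1 RPKM, 1.22-fold (0.27 ± 0.037). COV362 gave 24.3 and 23.3 against 20.4 and 22.2 RPKM, 0.896-fold (-0.15 ± 0.049), which ran from -0.21 to -0.09 with 1 library left out (the latter without EPZ015666 library A).

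At day 3 the GAS5 libraries of OVCAR8 were at 17.6 and 17.7 RPKM in DMSO and 15.9 and 16.0 under the drug, lower without overlap. Set against those day 3 DMSO libraries, the day 5 drug libraries differed by -0.19. BT549 gave 11.2 and 10.8 RPKM against 12.3 and 12.1 at day 5, and 11.2 and 10.4 against 10.8 and 12.9 at day 3, where the groups overlapped. GAS5 shares 42 bases with GAS5-AS1 and 801 with ZBTB37, both on the opposite strand. Over the 24 libraries their medians were 1.57 and 0.359 RPKM, against 15.9 for GAS5.

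SNHG5, the host of the SNORD50 pair, was lower in OVCAR8 at day 5, from 15.0 and 14.6 to 10.7 and 12.7 RPKM, 0.789-fold (log2 -0.32 ± 0.069), with -0.21 left without EPZ015666 library A. COV362 gave 9.78 and 9.90 against 8.33 and 8.43 RPKM, 0.852-fold (-0.21 ± 0.025). In BT549 at day 3 it was higher, from 4.2 and 4.41 to 5.52 and 6.78 RPKM, 1.43-fold (0.42 ± 0.085). In the other 3 comparisons BT549 at day 5 overlapped, OVCAR8 at day 3 differed by 0.02, and MDAMB436 stood at 9.80 and 8.6 against 10.8 and 10.4 RPKM, a difference of 0.10 to 0.27 with 1 library left out (highest without DMSO library A). Against DMSO of day 3, the OVCAR8 day 5 difference was -0.17.

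SNHG12, which carries 3 H/ACA guides and SNORD99, was higher in COV362, from 2.08 and 2.05 to 2.82 and 2.57 RPKM, 1.30-fold (log2 0.27 ± 0.042). In OVCAR8 at day 5 it was lower, from 5.30 and 5.03 to 3.92 and 4.5 RPKM, 0.816-fold (-0.24 ± 0.064), which was -0.16 without EPZ015666 library A and -0.14 with DMSO of day 3 in place of day 5. MDAMB436 stood at 6.90 and 6.93 against 7.79 and 7.49 RPKM. BT549 at day 5 lay at 4.38 and 4.40 against 5.11 and 4.56 RPKM, and at day 3 at 5.97 and 5.65 against 4.91 and 5.56, so the sign differed between its days. TRNAU1AP on the opposite strand shares 8 bases with SNHG12, and its fold was 0.488 to 0.749 over the 6 comparisons.

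SNHG15, the host of SNORA9, had groups that did not overlap in COV362. Its libraries there stood at 5.05 and 5.67 RPKM in DMSO and at 7.10 and 7.30 under the drug, 1.34-fold (log2 0.37 ± 0.054). In the other 5 comparisons the groups overlapped, with folds of 0.962 to 1.09. The difference between lines was not tested.

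SNHG5, SNHG8, SNHG12, SNHG16 and GAS5, 5 of the 9 hosts, were each above DMSO without overlap in at least 1 comparison and below it in at least 1. That held for 52.7% of the 4721 genes tested in each line, so the hosts' share is near that of all genes. In OVCAR8 under the drug at day 5, library B had 4.54% of its reads on the 21p genes. Without it SNHG5, SNHG8, SNHG12 and GAS5 differed from DMSO by -0.43, -0.69, -0.32 and -0.51 on the log2 scale. In BT549 at day 3, SNHG1, SNHG5 and SNHG19 differed by 0.53, 0.55 and 0.58 without EPZ015666 library A, the other library rich in 21p reads.

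In the vehicle alone, 2 of the 9 hosts passed between day 3 and day 5 in OVCAR8 and 1 of 9 in BT549, where 36.7% and 16.7% of all genes did. With limma-voom the hosts' count was 4 in each line, and without a filter on low values it was 1 and 0. At 9 hosts nothing is read from these counts. The choice of the genes names no time contrast, so tests are given. These comparisons share their DMSO libraries with the drug comparisons, whose results were known when the hosts were chosen. The p-values are therefore not independent of that choice and serve as a description. In OVCAR8 DMSO, SNHG8 rose from 26.2 and 27.2 RPKM at day 3 to 41.6 and 37.5 at day 5, 1.48-fold (log2 0.55 ± 0.079, adjusted p = 0.00418 by limma). SNHG15 fell there from 4.54 and 4.54 to 4.03 and 3.48 RPKM, 0.827-fold (-0.22 ± 0.059, adjusted p = 0.0297 by limma). The SNHG8 call stood without each of the 4 libraries in turn, while that of SNHG15 was lost without DMSO day 5 library B (-0.14), day 3 library A (-0.22) or day 3 library B (-0.22). Of all genes, 20.7% rose and 15.9% fell in this comparison.

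GAS5 in OVCAR8 DMSO stood at 17.6 and 17.7 RPKM at day 3 and 21.4 and 19.9 at day 5, 1.17-fold (log2 0.22 ± 0.071, adjusted p = 0.0569 by limma). The libraries did not overlap, and the threshold was missed. The remaining 6 hosts differed by -0.04 to 0.18 and did not pass.

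In BT549 DMSO the host that passed was SNHG12. It fell from 5.97 and 5.65 RPKM at day 3 to 4.38 and 4.40 at day 5, 0.756-fold (log2 -0.34 ± 0.068, adjusted p = 0.0193 by limma). The SNHG12 call was lost without DMSO day 5 library A (-0.33), day 5 library B (-0.34) or day 3 library A (-0.30). SNHG15 went from 3.75 and 3.85 to 2.93 and 3.11 RPKM (-0.26, adjusted p = 0.0688 by limma), and SNHG5 from 4.2 and 4.41 to 5.46 and 5.14 RPKM (0.25, adjusted p = 0.0883 by limma). SNHG1, at -0.12, and SNHG19, at 0.01, did not pass over time in this line, nor in OVCAR8 at -0.04 and 0.18.

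**Figure D3:**
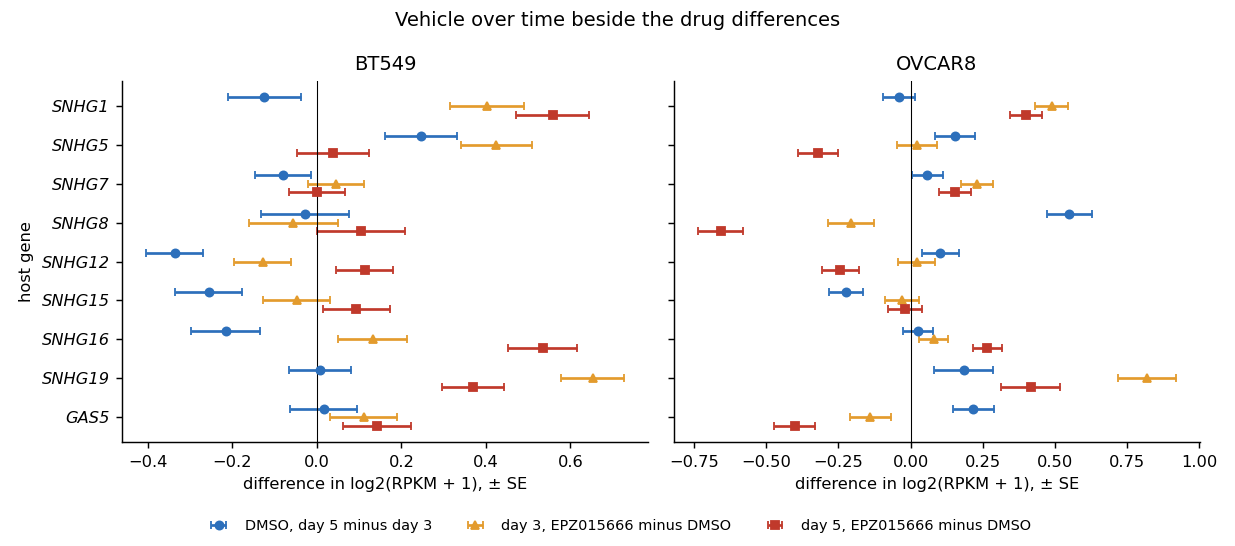
Difference in log2(RPKM + 1), with its SE as bars, for DMSO at day 5 minus day 3 (blue), EPZ015666 minus DMSO at day 3 (orange) and at day 5 (red), by host, in BT549 and OVCAR8. In OVCAR8 the SNHG8 vehicle difference of 0.55 and its day 5 drug difference of -0.66 point in opposite directions and share the DMSO day 5 libraries.

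Other genes of the pathway were taken from lists of hosts, snoRNP proteins and decay factors. Of 18 other long non-coding hosts, 13 have a row and 8 to 11 were tested in a line. At day 5 they gave 4 higher and 0 lower of 8 in BT549 (all genes 17.7% and 22.7%) and 3 and 2 of 9 in OVCAR8 (21.1% and 35.1%). COV362 gave 7 and 2 of 11 (39.3% and 31.5%), and MDAMB436 2 and 0 of 8 (19% and 23.2%). Where 0 were lower, limma's unadjusted p under 0.05 gave 0 as well, and limma-voom gave 0 in BT549 and 1 in MDAMB436, SNHG14. LINC02001, also named SNHG30, rose in the 3 lines where it was tested: from 1.54 to 2.31 RPKM in BT549 at day 5 (1.5-fold), 0.758 to 2.12 in COV362 (2.79-fold) and 0.846 to 1.77 in MDAMB436 (2.10-fold). SNHG17 rose in COV362, from 0.739 to 1.62 RPKM (2.19-fold), in OVCAR8 at day 5 (1.55-fold) and in BT549 at day 5 (1.21-fold), and in MDAMB436 its fold was 1.0. DANCR rose in COV362 (1.52-fold) and in OVCAR8 at day 5 (1.29-fold). In OVCAR8 DMSO between the days, DANCR had fallen from 6.54 to 5.06 RPKM and SNHG17 from 1.21 to 0.82, and their day 5 drug means were 6.54 and 1.27. At day 3 their drug folds there were 1.25 and 1.24, both past the threshold. SNHG17 had also fallen in BT549 DMSO, from 5.02 to 4.01 RPKM, with a day 5 drug mean of 4.86. SNHG6 fell in OVCAR8 at day 5, from 31.1 to 24.8 RPKM (0.798-fold), and had risen in OVCAR8 DMSO between the days, from 24.1 to 31.1 RPKM, as SNHG8 had.

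Of 39 protein-coding hosts, 36 have a row. At day 5, 6 of 34 tested were higher and 6 lower in BT549 (all genes 17.7% and 22.7%), and 7 and 17 of 35 in OVCAR8 (21.1% and 35.1%). COV362 gave 11 and 18 of 35 (39.3% and 31.5%), and MDAMB436 4 and 12 of 34 (19% and 23.2%). RPL13A, a ribosomal protein gene with several C/D snoRNAs in its introns, fell in each line at day 5, to 0.684-fold in BT549, 0.681-fold in OVCAR8, 0.558-fold in COV362 and 0.855-fold in MDAMB436. RPL3 fell in BT549 (0.856-fold), OVCAR8 (0.784-fold) and COV362 (0.662-fold) and stood at 0.958-fold in MDAMB436 without passing. HSPA8, a chaperone gene, rose in BT549 and OVCAR8 at day 5 (1.43-fold and 1.42-fold) and fell in MDAMB436 (0.886-fold). HSPA9 rose in COV362 (1.49-fold) and in OVCAR8 at day 5 (1.32-fold). In OVCAR8 DMSO between the days, HSPA8 had fallen from 187 to 138 RPKM and HSPA9 from 24.7 to 20.5. RPL13A had risen there from 63.7 to 82.8 RPKM and RPL3 from 211 to 257. In BT549 DMSO, HSPA8 had fallen from 298 to 247 RPKM and RPL13A had risen from 27.0 to 32.3. The day 5 drug means of HSPA8 were 195 RPKM in OVCAR8 and 352 in BT549. At day 3 the drug folds in OVCAR8 were 1.22 for HSPA8 and 1.14 for HSPA9, both past the threshold. Those of RPL3 and RPL13A were 0.927 and 0.884 and did not pass. In BT549 at day 3, HSPA8 (1.11-fold) and RPL13A (0.962-fold) did not pass.

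All 17 snoRNP proteins and assembly factors have a row, and 13 to 15 were tested. COV362 gave 11 higher and 2 lower of 15 (all genes 39.3% and 31.5%), and BT549 at day 5 gave 5 and 1 of 13 (17.7% and 22.7%). OVCAR8 at day 5 gave 1 and 4 of 14 (21.1% and 35.1%), and MDAMB436 4 and 2 of 13 (19% and 23.2%). NOP56 and NOP58, the paired core proteins of C/D snoRNPs and themselves snoRNA hosts, differed in COV362: NOP56 fell from 25.4 to 17 RPKM (0.670-fold) and NOP58 rose from 5.03 to 7.40 RPKM (1.47-fold). NOP56 also fell in MDAMB436 (0.650-fold), where NOP58 stood at 1.03-fold without passing. PIH1D1, part of the R2TP assembly complex, fell in each line at day 5, most in OVCAR8, from 11 to 7.25 RPKM (0.656-fold). NOLC1, a nucleolar snoRNP chaperone, rose in COV362 (1.47-fold) and in BT549 at day 5 (1.18-fold). In BT549 DMSO, NOLC1 had fallen from 30.5 RPKM at day 3 to 26.0 at day 5, and its day 5 drug mean was 30.6. At day 3 its drug fold in BT549 was 1.04, not past the threshold. NOP56, NOP58 and DKC1 are on both this list and that of the protein-coding hosts.

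Because spliced host RNA is known as a substrate of nonsense-mediated decay, 17 factors of that pathway and of the exon junction complex were listed, of which 16 have a row and 10 or 11 were tested. COV362 gave 10 higher and 0 lower of 11 (all genes 39.3% and 31.5%). BT549 at day 5 gave 4 and 0 of 11 (17.7% and 22.7%). OVCAR8 at day 5 gave 3 and 2 of 10 (21.1% and 35.1%), and MDAMB436 4 and 1 of 11 (19% and 23.2%). The lower counts of 0 in COV362 and BT549 were 0 at limma's unadjusted p under 0.05 too, and 1 in each by limma-voom, which tested 16 of the factors (NBAS in COV362, SMG6 in BT549). SMG5, an adaptor for dephosphorylation of the helicase UPF1, rose in each line at day 5: from 5.28 to 6.43 RPKM in BT549, 3.26 to 3.59 in OVCAR8, 11.2 to 17.7 in COV362 and 6.76 to 7.96 in MDAMB436. DHX34, which was tested in BT549, rose there from 1.58 to 2.55 RPKM at day 5. In BT549 DMSO between the days, SMG5 had fallen from 6.18 to 5.28 RPKM and DHX34 from 2.10 to 1.58. At day 3 the drug folds in BT549 were 1.07 for SMG5, not past the threshold, and 1.19 for DHX34, past it. SMG9 fell in OVCAR8 at day 5 (0.754-fold) and MDAMB436 (0.859-fold).

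Of 6 protein-coding transcripts known as targets of the decay pathway, 4 of 5 tested rose in COV362 and 0 fell (all genes 39.3% and 31.5%). GADD45A, a stress gene, rose there from 23.6 to 43.2 RPKM, GADD45B from 7.13 to 16.6 and UPP1 from 3.12 to 7.01. In OVCAR8 at day 5, 2 of 5 rose and 2 fell (all genes 21.1% and 35.1%). TBL2 fell from 6.91 to 3.93 RPKM, GADD45B fell from 37.8 to 25.4, and UPP1 rose from 1.11 to 1.72. In OVCAR8 DMSO between the days, TBL2 had risen from 5.53 to 6.91 RPKM and GADD45B from 33.0 to 37.8, and UPP1 had fallen from 1.34 to 1.11. At day 3 the drug folds in OVCAR8 were 0.723 for TBL2, 0.828 for GADD45B and 1.37 for UPP1, all past the threshold. MDAMB436 gave 2 higher and 0 lower of 5 (19% and 23.2%), and BT549 at day 5 gave 0 higher and 1 lower of 4 (17.7% and 22.7%). Limma's unadjusted p under 0.05 gave 0 lower in COV362, 1 lower in MDAMB436 (TBL2) and 0 higher in BT549, and limma-voom gave 0, the same TBL2, and 1 (UPP1). The calls in these lists are limma's at an adjusted p under 0.05, the shares of all genes called are those given with the 9 hosts, and no list was tested as a set.

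**Figure D4:**
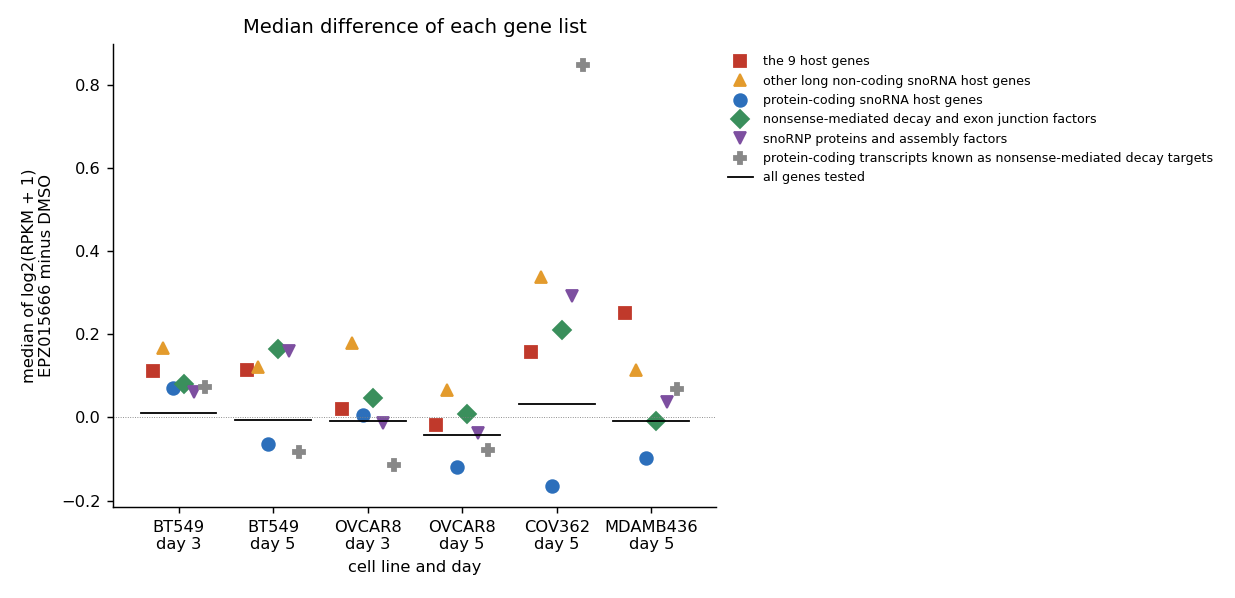
Median difference in log2(RPKM + 1) between EPZ015666 and DMSO over the tested genes of each list, by line and day, with a black bar at the median of all genes tested. In COV362 the decay targets sit at 0.85, the other long non-coding hosts at 0.34 and the protein-coding hosts at -0.17, with the 9 hosts at 0.16.

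The genes whose level followed each host most closely were found over the 24 libraries, after centring log2(RPKM + 1) on the mean of each line. The libraries share lines, treatment groups and days, so Pearson's r is a description. For SNHG1 they were SSU72 (r = 0.970), DDX27 (0.970) and ZPR1 (0.969), and for SNHG19 NELFCD (0.915), PRPF38B (0.896) and CLASRP (0.895). SNHG5 lay closest to RPL26P19 (0.855), RPL11 (0.833) and RPL7P9 (0.826), and GAS5 to TOMM7 (0.871), NDUFB4 (0.870) and RPL14 (0.831). RPL26P19 and RPL7P9 are pseudogenes of ribosomal protein genes, whose reads could come from their parent genes.

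SNHG16 lay closest to ACSL4 (0.946), SYPL1 (0.857) and GTF2A1 (0.853). SNHG15 lay closest to NOP58 (0.876), COA7 (0.849) and METTL13 (0.848). For SNHG7 they were TBC1D20 (0.869), CYHR1 (0.851) and ZNF212 (0.850), for SNHG8 CXorf38 (0.835), GPR107 (0.830) and YIPF6 (0.828), and for SNHG12 PSMG3 (0.801), RHEB (0.791) and TSR2 (0.756). No host was among another host's closest 3 of the 4720 genes compared. The nearest came SNHG8, ranked 5 by closeness to GAS5 (r = 0.822), and GAS5, ranked 4 by closeness to SNHG8.

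Among the hosts themselves, r was 0.808 for SNHG1 and SNHG19, 0.723 for SNHG1 and SNHG7, and 0.721 for SNHG7 and SNHG19. Many other genes lay as close: of the 4720 genes, SNHG19 ranked 365 and SNHG7 ranked 659 by closeness to SNHG1, and SNHG1 ranked 98 by closeness to SNHG19 and 65 by closeness to SNHG7. For GAS5 and SNHG5 r was 0.747, with GAS5 ranked 17 by closeness to SNHG5. For SNHG12 and SNHG15 it was 0.693, with SNHG15 ranked 12 by closeness to SNHG12 and SNHG12 ranked 157 by closeness to SNHG15. It was low at -0.23 for SNHG1 with SNHG8 and -0.05 for SNHG1 with GAS5.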

How the data were processed

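RNA of 4 cancer cell lines was sequenced in 24 libraries of poly(A) RNA, 2 in each of 12 groups taken from the labels. The authors deposited RPKM values for 16591 gene symbols. Counting was done by featureCounts on GRCh38, per the submitters' processing notes. For the aligner, the annotation, the strand setting and the versions nothing is given in the sources used here. Each deposited RPKM value times the span of its gene in GENCODE v29 gave a whole number of reads, within 0.02 of a read, for 100% of the 222078 nonzero values under 1000 reads that were checked. A single span was found for 16544 symbols and not for 47. The recovered reads summed to 23.8 M to 44.9 M a library, and a host had 110 to 8026 reads in a library.

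From these values log2(RPKM + 1) was computed, and a gene was kept where its mean over the line's libraries reached 1 RPKM. The pseudocount of 1 understates the change of genes with low values. Models were fitted line by line with limma 3.58.1 (R 4.3.3), with 1 mean per group and a trend, two-sided, with Benjamini-Hochberg adjustment over all genes tested and a threshold of 0.05. A separate limma fit over the DMSO libraries of day 5 compared the lines. SDs and SEs rest on 2 libraries a group, with the spread shared over the groups of a fit. The scripts were tested on simulated data. Sequences came from GENCODE v29 and RefSeq tables on GRCh38.

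The 9 hosts, the 6 gene lists and the tests were chosen with earlier results of these data known. All 9 hosts are named, all of the other long non-coding hosts could be named, and from each other list up to 4 genes with the smallest adjusted p at day 5 were named. The closest genes of a host are the 3 with the highest Pearson r among genes whose mean reached 1 RPKM in all 4 lines. Alternatives reported for the 9 hosts were a pseudocount of 0.1, no filter, a minimum mean of 5 RPKM, scaling by median of ratios, 1 fit over all 24 libraries, the replicate letter as a block, limma-voom on the recovered reads with factors from trimmed means of M values, and leaving out each library. For the other gene lists, counts by limma-voom and by limma's unadjusted p were used as well.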

Additional observations from a re-analysis of the deposited data

Results flagged for a closer look

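SNHG5, SNHG8, SNHG12, SNHG16 and GAS5 lay on opposite sides of DMSO in different lines at day 5, with both drug libraries above both DMSO libraries in one line and below them in another. These differences between lines were not tested. The share of all genes given earlier covers day 3 as well, and none was computed for day 5 alone, so nothing is read from the number of hosts. The lines set against each other are those with a host's highest and lowest difference, picked after seeing the data. SNHG8 differed most, by 0.99 on the log2 scale, between MDAMB436 (0.33 ± 0.038, SE) and OVCAR8 (-0.66 ± 0.079). SNHG16 differed by 0.71 between BT549 (0.53 ± 0.082) and COV362 (-0.18 ± 0.053). GAS5 differed by 0.68 between MDAMB436 (0.27 ± 0.037) and OVCAR8 (-0.40 ± 0.071). SNHG12 differed by 0.51 between COV362 (0.27 ± 0.042) and OVCAR8 (-0.24 ± 0.064), and SNHG5 by 0.50 between MDAMB436 (0.18 ± 0.067) and OVCAR8 (-0.32 ± 0.069). SNHG5 was not called in MDAMB436. Against DMSO of day 3, the OVCAR8 values were -0.11 for SNHG8, -0.19 for GAS5, -0.14 for SNHG12 and -0.17 for SNHG5. The BT549 value of SNHG16 was then 0.32. In the vehicle alone, SNHG12 at day 5 against day 3 was higher in OVCAR8 (0.10 ± 0.064) and lower in BT549 (-0.34 ± 0.068), a difference of 0.44.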

How the results depend on the processing

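Of 793 values of single hosts under the alternatives, 43 lost the threshold, 26 gained it, 1 gained it with the opposite sign, and 723 kept their side of it, of which 29, not past it in either fit, had the opposite sign. With 2 libraries a group, leaving out 1 library ended 29 calls and made 4. The causes of the changes below were not tested, except that a minimum mean of 5 RPKM left 6 to 8 of the hosts. All hosts tested differed between lines under each alternative run for that comparison, 7 with a minimum mean of 5 RPKM and 9 otherwise; limma-voom and the fit over all libraries were not run for it.

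The letters A and B gave correlations of deviations between groups from -0.503 to 0.214 and do not establish pairing. With them as a replicate block, 69 of 72 values kept their call, SNHG19 in MDAMB436 was gained (0.32), and SNHG16 and GAS5 in COV362 were lost, which left 7 of the 9 hosts there.

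Against DMSO of day 3, an alternative chosen after seeing the data, SNHG12 in BT549 at day 5 turned from 0.11 to -0.22, 5 hosts in place of 3 were called in BT549 at day 5, and the OVCAR8 day 5 median went from -0.02 to -0.11. With a mean of at least 5, the median was 0.26 in place of 0.11 in BT549 at day 3, 0.15 in place of -0.02 in OVCAR8 at day 5, 0.079 in place of 0.022 in OVCAR8 at day 3, 0.0018 in place of 0.16 in COV362, and -0.0106 in place of -0.080 in BT549 DMSO over time. Without the filter, calls numbered 1 in place of 3 in BT549 at day 3, 0 in place of 1 in BT549 DMSO over time and 1 in place of 2 in OVCAR8 DMSO over time. With limma-voom, BT549 DMSO over time had 4 calls and a median of -0.15, OVCAR8 DMSO over time had 4 calls, and the MDAMB436 median was 0.29 in place of 0.25. With 1 fit over all libraries BT549 DMSO over time had 4 calls.

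Leaving out 1 library gave 1 to 3 calls in BT549 at day 3 (1 without DMSO library A), 0 to 1 in BT549 DMSO over time and 1 to 2 in OVCAR8 DMSO over time. The BT549 vehicle call, SNHG12, was lost without day 5 library A, day 5 library B or day 3 library A. The OVCAR8 vehicle call of SNHG15 was lost without day 5 library B, day 3 library A or day 3 library B. The median in OVCAR8 at day 3 ran from 0.016 to 0.083 (highest without DMSO library A), that in MDAMB436 from 0.21 to 0.27 (lowest without EPZ015666 library B), and that in OVCAR8 at day 5 from -0.10 to 0.064, with the sign turned without DMSO library A or EPZ015666 library A. A lone library left in a group was assumed to vary like the others of its fit.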
